A study of Mus musculus with 8 samples.

Results

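The genes described here are the collagen genes of dorsal root ganglia (DRG) of the mouse. These ganglia lie along the spinal cord and consist of sensory neuron cell bodies, their glia, blood vessels and connective tissue sheaths. The genes were chosen by name alone, as every row whose symbol is "Col", a type number, "a" and a chain number, with rows of the same symbol summed. This gave 44 genes of 48315 symbols, of which 42 had a mean of at least 1 CPM (reads per 1000000 assigned reads) and entered the test. The other two, Col17a1 and Col6a4, had means of 0.382 and 0.550 CPM and are given by level only. In all, 8 genes were placed in the fibrillar class, 7 in the cartilage class and 9 in the basement membrane class. A further 8 were placed among beaded filaments and networks, 6 among the FACIT collagens (fibril-associated collagens with interrupted triple helices) and 6 among transmembrane and other types. The cartilage class was set by tissue and not by the build of the protein. It takes in Col2a1, Col11a1 and Col11a2, whose chains form fibrils, and the type IX chains. The fibrillar and FACIT classes therefore do not hold every gene of that build.

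The data were ribosome footprints, RNA fragments of 28 to 34 nt protected by ribosomes, from DRG of mice of the strain labelled SW. All mice were labelled wild type and all had received saline; 4 libraries were labelled female and 4 male, and the labels give no age. The labels do not state whether each library is a separate animal, so p-values measure only how far these libraries spread, which may be technical. Matched libraries of RNA abundance were not used here, so a level is a share of footprint reads and not a translation rate per transcript.

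The libraries held between 3697683 assigned reads (male 1) and 12714512 (male 3), and a floor of 3 reads was worth between 0.236 and 0.811 CPM, which covers counting error only. In 3 libraries the sex-linked genes did not match the label: the sum of 4 Y-linked genes was 121 CPM in female 1 and 138 CPM in female 3, and 2.70 CPM in male 1, where Xist was at 10.6 CPM. Libraries are therefore called by their labels throughout, and results between labelled sexes are also given without these 3 libraries. Female 1 and female 3 differed in 1.05% of 12576 genes at p below 0.001 by a chi-square test on values rounded to whole reads, the fewest of any pair of libraries, whereas every other pair differed in between 9.35% and 31.7% of genes. The labelled tissue carried its defining markers: the 8 neuronal markers summed to between 12826 and 16054 CPM in libraries labelled female and between 8604 and 14071 CPM in those labelled male, and the 8 Schwann cell markers to between 15510 and 18047 CPM in female and between 14040 and 21294 CPM in male libraries.

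Collagens are built from chains that wind around each other in groups of 3, and the winding needs glycine at regular intervals, so each chain repeats the triplet glycine-X-Y, in which X and Y are often proline and hydroxyproline. Fibrillar collagens form the tensile fibrils of the epineurium, the outer sheath of nerves and ganglia; type IV collagen forms the mesh of the basement membranes around Schwann cells, satellite glia, perineurial cells and capillaries; and FACIT collagens sit on the surface of fibrils. In peripheral nerve the interstitial chains are made mostly by fibroblasts, while Schwann cells, perineurial and endothelial cells also make basement membrane collagens. Cartilage collagens are best known from cartilage, and some of them are also made at low levels in other connective tissue.

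The triplet repeat is the feature that unites the members, and it can be read directly in their exons. The following coding exons, 1 for each of 4 highly read members, show how a collagen exon can be built of whole triplets. They were picked for this shape, from within the longest unbroken run of triplets: the first exon of 54 nt there or, without one, the first exon. Each is printed 5′ to 3′ on the strand of the gene, from the transcript with the longest coding sequence in GENCODE M21 on GRCm38, with every glycine codon (GGN) in capitals.
Col1a2, coding exon 8, plus strand, chr6:4515481-4515534: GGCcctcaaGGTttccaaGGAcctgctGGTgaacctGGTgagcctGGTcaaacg
Col3a1, coding exon 6, plus strand, chr1:45325360-45325413: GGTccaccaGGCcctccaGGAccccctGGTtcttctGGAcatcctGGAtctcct
Col15a1, coding exon 14, plus strand, chr4:47270912-47270974: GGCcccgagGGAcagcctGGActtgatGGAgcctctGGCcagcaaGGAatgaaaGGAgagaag
Col4a1, coding exon 7, minus strand, chr8:11245211-11245264: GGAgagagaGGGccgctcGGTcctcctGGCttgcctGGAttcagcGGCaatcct
In the exons of Col1a2, Col3a1 and Col4a1, 54 nt hold 6 glycine codons, and in that of Col15a1 63 nt hold 7, so that a glycine codon opens every run of 9 nt. A footprint of 28 nt covers at most 3 whole triplets of this pattern.

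Exons with a length that whole triplets can fill were common among the members, most of all in the fibrillar and cartilage classes. Only lengths were counted, not the place of glycine codons within each exon. Of the 1916 internal coding exons of the 44 genes, 63.9% had a length that is a multiple of 9 nt, against 13.5% of 128848 internal coding exons of other genes tested, and 469 (24.5%) were exactly 54 nt long, against 0.418% elsewhere. The share of multiples of 9 was 84.5% in fibrillar and 77.3% in cartilage genes, and between 50.1% and 61.7% in the other classes. Of the exons of 54 nt, 219 were in fibrillar and 128 in cartilage genes, and 22 among the 477 exons of the basement membrane class. In Col4a1 2 of 50 internal coding exons were 54 nt long, and in Col15a1 11 of 38 were multiples of 9 nt. Glycine codons made up a median of 24.2% of codons in collagens (range 9.07% to 31.2%), against 6.32% in 13702 coding genes tested, and proline codons (CCN) a median of 16.2%, against 5.56%. All 44 genes had an unbroken run of at least 20 triplets, and of the 56 genes tested with such a run 42 were collagens.

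**Figure D1:**
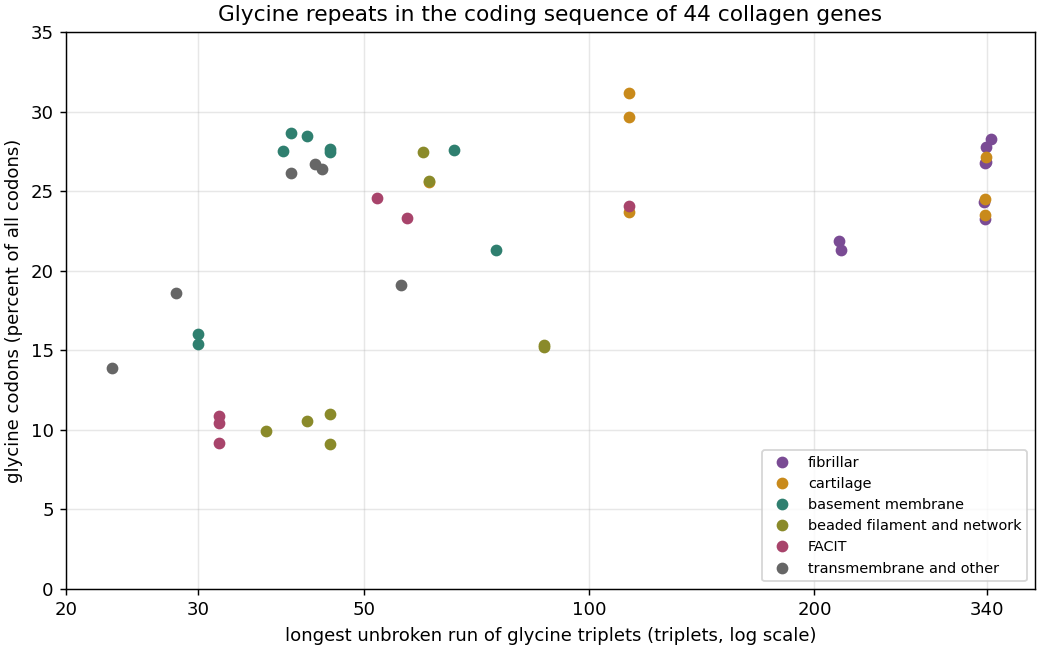
Glycine codons as a percent of all codons (vertical axis) against the longest unbroken run of glycine triplets (horizontal axis, log scale) for 44 collagen genes, 1 point a gene, coloured by class. Fibrillar genes lie at the right with runs of 216 to 344 triplets, as do the cartilage genes Col2a1, Col11a1 and Col11a2 with 338 or 339. Basement membrane genes, with 30 to 75, and transmembrane and other genes, with 23 to 56, lie farther left and overlap.

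The classes differed in the length of the longest run, as the plot of glycine codons against run length shows. It was 337 to 344 triplets in Col1a1, Col1a2, Col3a1 and the type V chains, and 216 and 217 in Col24a1 and Col27a1, the fibrillar genes with the lowest read levels. In the cartilage class it ranged from 61 to 339, with 339 in Col2a1 and 338 in Col11a1 and Col11a2. Runs were broken in the basement membrane class (30 to 75 triplets, 40 in Col4a1), in FACIT genes (32 to 113) and in type VI chains (87 in Col6a1 and Col6a2, 45 in Col6a3). Despite the shared repeat, few stretches were identical between genes: the median share of 28-nt windows of a collagen coding sequence that also occurred in a transcript of another gene was 0%, and the highest shares were 5.72% in Col6a6 and 4.90% in Col6a5, so reads of these 2 could in part have come from related genes. Exons of 13 collagen genes overlapped an exon of another annotated gene, such as 234 nt shared by Col9a3 with Tcfl5 and 22 nt by Col4a1 with Col4a2, on the opposite strand; whether reads were counted by strand is not given in the sources used here.

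Together the 44 genes took 15429, 12442, 14648 and 15245 CPM in the libraries labelled female 1 to 4, and 18790, 19126, 13884 and 16253 CPM in male 1 to 4, that is between 1.24% and 1.91% of all assigned reads. The fibrillar class held a mean of 70.4% of collagen reads, the basement membrane class 11.4%, beaded filaments and networks 8.95%, FACIT genes 6.66%, the cartilage class 1.78% and the transmembrane and other class 0.793%. The 2 chains of type I collagen alone held between 50.02% and 57.6%. By level, 15 genes lay at 100 CPM or more, 29 at 10 CPM or more and 13 between 1 and 10 CPM. In bulk tissue such as this, fewer cells of a type and less RNA per cell cannot be told apart.

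**Figure D2:**
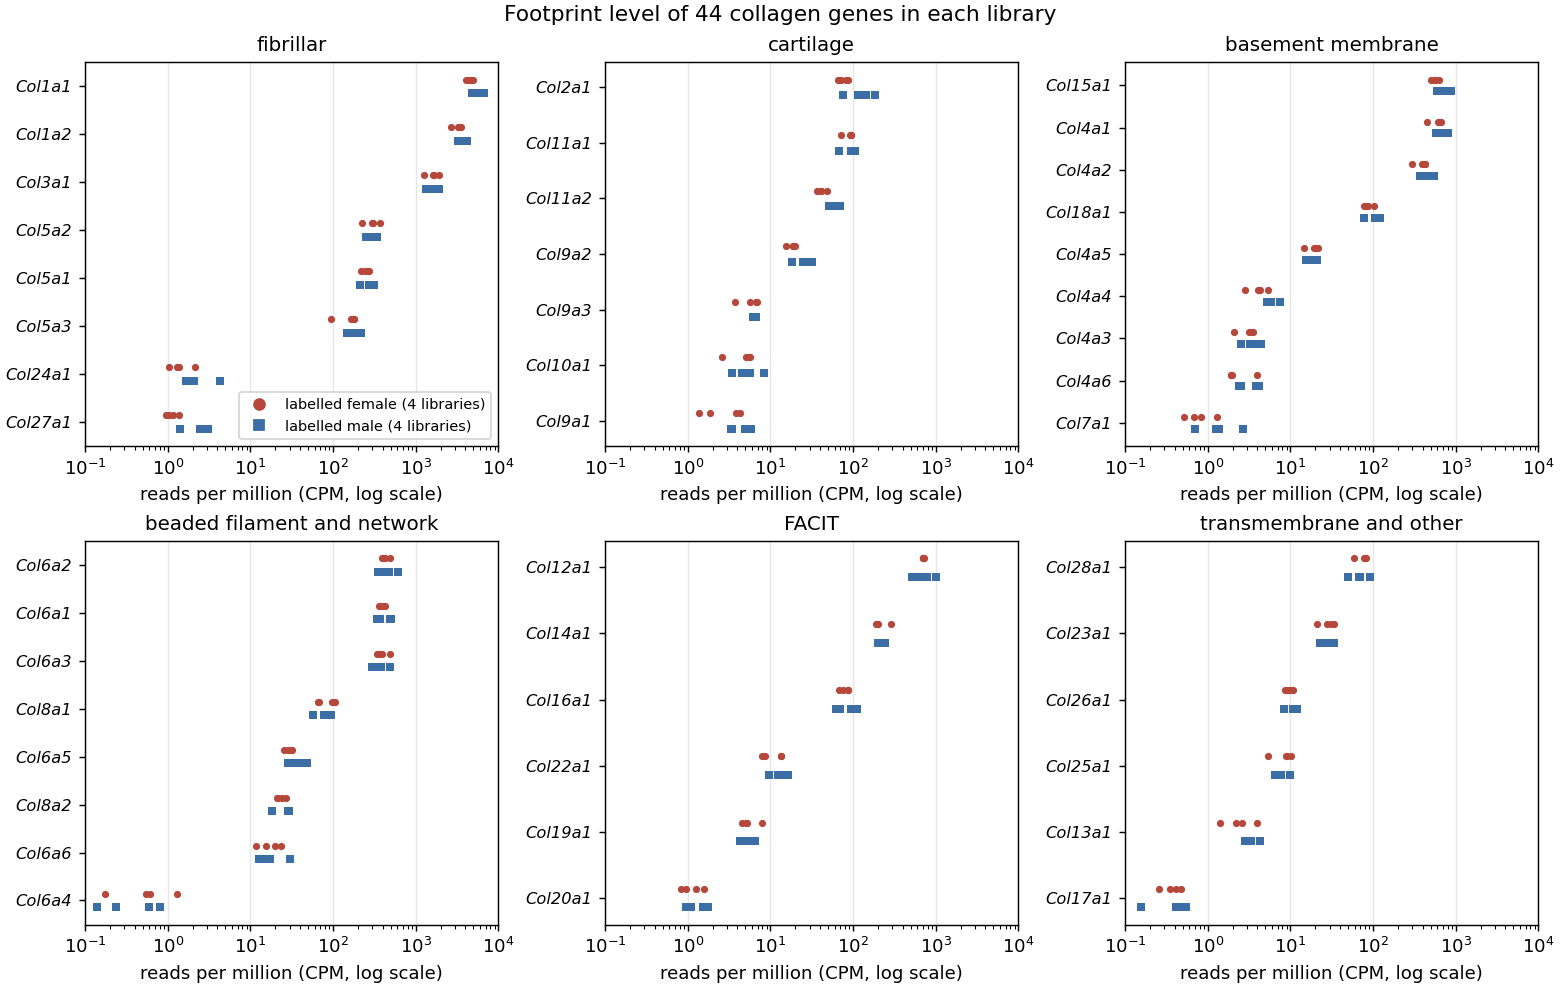
Footprint level in CPM (log scale) of each of the 44 collagen genes, 1 panel a class, with 1 point a library; circles are the 4 libraries labelled female and squares below them the 4 labelled male. In nearly every row the marks of the labelled sexes overlap. In Col11a2 and Col27a1 the female marks lie below all male marks, in Col27a1 by less than the value of a single read.

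The fibrillar class was led by the chains of type I collagen, the main fibril protein of connective tissue. Col1a1, the α1 chain (chr11:94936224-94953042, plus strand), had 4979, 4032, 4658 and 4351 CPM in female 1 to 4, against 6537, 6755, 4732 and 5376 CPM in male 1 to 4. Col1a2, the α2 chain (chr6:4504814-4541544, plus strand), had 3492, 2690, 3332 and 3274 CPM in female libraries, against 4184, 4204, 3262 and 3753 CPM in male libraries. For both chains male 2 was highest and female 2 lowest, and the labelled sexes overlapped through male 3.

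Col3a1, which makes type III collagen, a partner of type I in thin fibrils (chr1:45311538-45349706, plus strand), had 1677, 1266, 1611 and 1917 CPM in female 1 to 4, against 1828, 1897, 1332 and 1623 CPM in male 1 to 4. Its highest library was female 4, so it did not follow the order of type I. The type V chains, which regulate the diameter of fibrils, lay well below. Col5a2 had 304, 226, 297 and 374 CPM in female libraries and 340, 314, 253 and 331 CPM in male libraries, and Col5a1 had 267, 220, 240 and 272 CPM in female libraries and 308, 316, 214 and 272 CPM in male libraries. Col5a3, a type V chain of restricted distribution, averaged 165 ± 35.4 CPM (SD, n = 8). Col24a1 and Col27a1, the remaining genes of the fibrillar class, known from bone and cartilage, were at 2.27 ± 1.30 and 1.79 ± 0.850 CPM.

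In the basement membrane class, Col15a1 and the common type IV chains were highest. Col15a1, a proteoglycan that ties basement membranes to the fibrils below them (chr4:47208161-47313167, plus strand), had 569, 496, 561 and 628 CPM in female 1 to 4, against 701, 877, 597 and 673 CPM in male 1 to 4. Col4a1 (chr8:11198423-11312826, minus strand) had 635, 446, 609 and 662 CPM in female libraries, against 800.5, 580, 578 and 669 CPM in male libraries. Col4a2, its partner in the type IV mesh (chr8:11312805-11449287, plus strand), had 429, 300, 386 and 431 CPM in female libraries, against 545, 373, 372 and 442 CPM in male libraries. Both type IV chains were lowest in female 2 and highest in male 1, unlike Col15a1, whose highest library was male 2. Col18a1, the parent of endostatin, averaged 95.03 ± 16.7 CPM (n = 8).

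The other type IV chains, which replace the common ones in specialised basement membranes such as that of the kidney glomerulus, were scarce. Col4a5 had 21.3, 14.8, 19.1 and 19.9 CPM in female 1 to 4, and 18.1, 19.0, 15.5 and 20.8 CPM in male 1 to 4. Col4a4 had 5.41, 2.81, 4.08 and 4.29 CPM in female libraries and 7.57, 5.86, 5.27 and 5.75 CPM in male libraries, and Col4a3 had 3.14, 3.51, 3.30 and 2.08 CPM in female libraries and 3.25, 4.46, 2.52 and 3.98 CPM in male libraries. Col4a6 had 1.92, 1.99, 3.91 and 1.94 CPM in female libraries and 3.79, 2.51, 2.36 and 4.13 CPM in male libraries. Of these 4 genes Col4a5 had the smallest spread between libraries, with a coefficient of variation (CV) of 12.7%, the lowest of all collagens at 10 CPM or more. Col7a1, the anchoring fibril collagen of skin, averaged 1.16 ± 0.681 CPM (n = 8).

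Among beaded filaments and networks the 3 main chains of type VI collagen, which forms microfibrils around cells, lay at similar read levels. Col6a2 had 428, 418, 386 and 495 CPM in female 1 to 4, against 480, 604, 347 and 426 CPM in male 1 to 4. Col6a1 had 400, 364, 368 and 429 CPM in female libraries, against 484, 497, 337 and 371 CPM in male libraries. Col6a3, the long chain, had 395, 340, 372 and 486 CPM in female libraries, against 384, 494, 293 and 347 CPM in male libraries. All 3 chains were highest in male 2 and lowest in male 3. The alternative chains averaged 33.6 CPM (Col6a5), 18.3 CPM (Col6a6) and 0.550 CPM (Col6a4). The type VIII chains, which form sheets beneath vascular and corneal endothelium, averaged 81.9 ± 17.4 CPM (Col8a1) and 24.7 ± 4.17 CPM (Col8a2).

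In the FACIT class, Col12a1, which links fibrils in dense connective tissue (chr9:79598991-79718831, minus strand), had 713, 706, 706 and 707 CPM in female 1 to 4, against 774, 1020, 510 and 649 CPM in male 1 to 4. Female libraries were nearly level, whereas male 2 was the highest and male 3 the lowest of all 8. Col14a1 had 197, 199, 190 and 288 CPM in female libraries and 224, 243, 200 and 211 CPM in male libraries. Col16a1 had 86.7, 68.5, 76.2 and 87.7 CPM in female libraries and 112, 69.3, 62.4 and 94.5 CPM in male libraries. Col22a1, a collagen of tissue junctions such as that of muscle and tendon, averaged 11.9 CPM, Col19a1 5.55 CPM and Col20a1 1.24 CPM.

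Col28a1, best known from peripheral nerve, where it lies in the basement membrane around non-myelinating glia, led the last class (chr6:7997808-8192617, minus strand). It had 81.0, 59.2, 82.7 and 77.8 CPM in female 1 to 4, against 69.2, 49.5, 67.2 and 92.9 CPM in male 1 to 4. Its lowest libraries were male 2 and female 2 and its highest male 4, and the labelled sexes overlapped fully. Col23a1, a transmembrane collagen, had 33.9, 20.9, 31.2 and 27.4 CPM in female libraries and 33.8, 22.6, 32.4 and 28.3 CPM in male libraries; in both labelled sexes library 2 was lowest. Col26a1 had 10.6, 9.02, 9.90 and 8.72 CPM in female libraries and 11.9, 11.7, 8.34 and 10.8 CPM in male libraries, Col25a1, a transmembrane collagen of neurons, averaged 8.08 CPM, and Col13a1, which acts at the neuromuscular junction, 2.98 CPM.

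Genes of the cartilage class had at most 185 CPM in a library. Col2a1, the main fibril collagen of cartilage (chr15:97975602-98004695, minus strand), had 87.3, 72.4, 83.1 and 66.4 CPM in female 1 to 4, against 185, 75.3, 114 and 143 CPM in male 1 to 4. Its CV of 40.3% and its 2.78-fold range between libraries were the highest among collagens at 10 CPM or more. Col11a1 and Col11a2 make chains of type XI, which pairs with type II in cartilage fibrils. Col11a1 had 94.4, 71.6, 91.9 and 93.8 CPM in female libraries and 107, 103, 68.0 and 94.7 CPM in male libraries, whereas Col11a2 (chr17:34039437-34066685, plus strand) had 47.8, 36.2, 41.1 and 40.7 CPM in female libraries and 69.5, 55.9, 51.6 and 57.4 CPM in male libraries. The labelled sexes overlapped in Col11a1 and did not in Col11a2. Col9a2, a type IX chain, had 20.1, 15.3, 18.8 and 18.8 CPM in female libraries and 31.9, 24.7, 18.3 and 28.5 CPM in male libraries. Its partners were lower, Col9a3 at 6.63, 3.75, 6.86 and 5.67 CPM in female libraries and 6.22, 6.28, 6.13 and 6.78 CPM in male libraries, and Col9a1 at 3.84, 1.87, 4.26 and 1.38 CPM in female libraries and 4.87, 3.35, 3.46 and 5.75 CPM in male libraries. Col10a1, the collagen of hypertrophic cartilage, averaged 5.15 ± 1.73 CPM (n = 8).

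Genes can be ranked against each other only per length, so CPM was divided by the length of the longest coding sequence of each gene in kilobases. Col1a1 stood at 1188 ± 227 CPM per kilobase (SD, n = 8), rank 43 of 14070 coding genes, Col1a2 at 856 ± 124 (rank 77) and Col3a1 at 374 ± 55.5 (rank 235). Col1a1 lay above Col1a2 in 8 of 8 libraries, and Col1a2 above Col3a1 and Col3a1 above Col15a1 in 8 of 8 with ranges that did not touch. Below these the order was less firm. Col15a1 (155 ± 28.4 CPM per kilobase) was above Col6a2 (144 ± 25.5) in 6 of 8 libraries, Col6a2 above Col6a1 (132 ± 19.1) in 7, and Col6a1 above Col4a1 (124 ± 20.1) in 4. Neighbours among these 4 genes thus changed places between libraries, while Col15a1 lay above Col6a1 and above Col4a1 in 8 of 8. Col4a1 was above Col4a2 (80.02 ± 13.9) in 8 of 8, while Col4a2 and Col12a1 (78.6 ± 15.5), and Col12a1 and Col5a2 (67.9 ± 10.6), each changed places in 3 libraries. Col2a1 stood at 23.2 ± 9.33 CPM per kilobase, above Col28a1 (21.2 ± 4.08) in 4 of 8 libraries. The division takes every read of a gene as coding, since positions of reads within genes were not tested.

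Chains of the same trimer were then compared per coding length within each library, so that the overall share of collagen in a library cancels. The known trimers hold 2 copies of α1 and 1 of α2 in types I and V and in the common type IV, 2 of α5 and 1 of α6 in a rarer type IV, and 1 copy of each chain in the pairs of types VI, IX and XI compared here. The ratio of Col1a1 to Col1a2 was 1.38 ± 0.085 (SD, n = 8 libraries, range 1.25 to 1.52), and that of Col4a1 to Col4a2 was 1.56 ± 0.041 (1.501 to 1.61). The CV of the Col4a1 to Col4a2 ratio was 2.64%, although the lower CV of the 2 chains by themselves was 16.2%. For type I the CV of the ratio was 6.14%, against 14.5% for the less variable chain. Both ratios lay between 1 and 2 in every library.

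**Figure D3:**
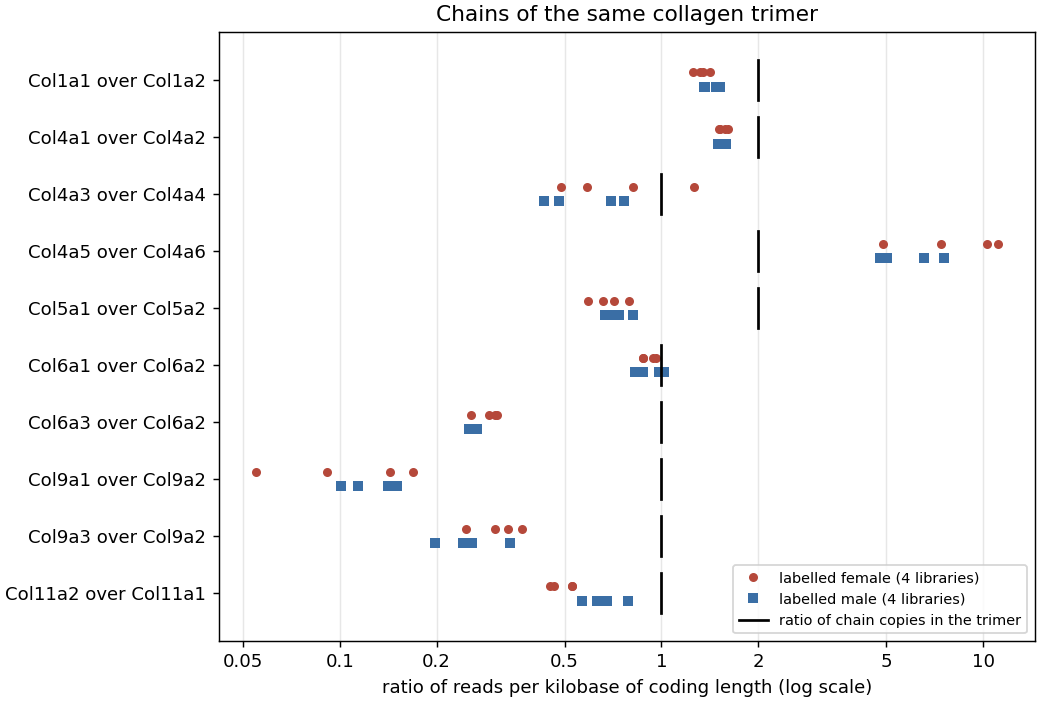
Ratio of reads per kilobase of coding length between chains of the same trimer (log scale), 1 point a library, circles for the 4 libraries labelled female and squares below them for the 4 labelled male; the black tick is the ratio of chain copies in the trimer. The ratio of Col4a1 to Col4a2 spans 1.501 to 1.61 and that of Col4a5 to Col4a6 4.79 to 11.1.

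In type VI, Col6a1 and Col6a2 had a ratio of 0.920 ± 0.064 (CV 6.999%), with a copy ratio of 1 to 1, while the ratio of the long chain Col6a3 to Col6a2 was 0.274 ± 0.023 (CV 8.52%). Col5a1 was below Col5a2 in every library, with a ratio of 0.709 ± 0.074 where the trimer holds 2 copies of the α1 chain to 1 of α2. In type IX the ratio was 0.286 ± 0.059 for Col9a3 to Col9a2 and 0.121 ± 0.037 for Col9a1 to Col9a2, far from 1 in every library, with as few as 10 reads for Col9a1 in a library. The rarer type IV pairs varied more: Col4a5 to Col4a6 was 7.20 ± 2.42 and Col4a3 to Col4a4 0.691 ± 0.269, with as few as 11 and 12 reads in a library. Col11a2 to Col11a1 was the pair in which the labelled sexes did not overlap, at 0.526, 0.526, 0.465 and 0.451 in female 1 to 4, against 0.678, 0.567, 0.789 and 0.630 in male 1 to 4. No test was made of this ratio; it was picked out after the values of 10 ratios were seen.

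The ratios depend on the length used, since all annotated exons include untranslated parts and retained introns. Per length of all annotated exons the ratio of Col1a1 to Col1a2 was 2.77 and not 1.38, because the annotated exons of Col1a2 cover 12426 nt where its coding sequence has 4116 nt. Spread between libraries, as a CV, does not depend on the length.

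Some partner chains also lie next to each other in the genome (GRCm38). Col4a1 and Col4a2 start head to head on chromosome 8 with 22 nt of overlap, Col4a4 and Col4a3 head to head on chromosome 1 with 71 nt between them, and Col4a6 and Col4a5 head to head on chromosome X with 1308 nt between them. The closest pair by position was also the pair with the steadiest ratio, but Col4a3 and Col4a4, at few reads, were not steady, so 3 pairs give no trend. Col6a2 and Col6a1 lie on the same strand of chromosome 10, 85161 nt apart, and Col3a1 and Col5a2 tail to tail on chromosome 1, 24614 nt apart.

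The design allows a comparison of libraries labelled female with libraries labelled male. No collagen gene passed limma's test at an adjusted p of 0.05, higher or lower, and neither did any of the 15720 genes tested (0.0% called in each direction). Before adjustment, 8 of the 42 collagens tested were lower in female libraries at p below 0.05, where 1.41% of all genes were, and 0 were higher, where 11.9% of all genes were. The log2 fold change, female minus male, was below 0 in 36 of 42 collagens and in 28.3% of all genes. Its median was -0.16 over collagens and 0.15 over all genes tested, and each of the 42 collagens lay below the all-gene median. Without male 1, 37 of 42 lay below the all-gene median of that fit, and without female 1, female 3 and male 1, 35 of 42. With median-ratio scaling, which moves the all-gene median to 0.004, all 42 collagens were below 0, as were 49.5% of all genes, and 11 of 42 were lower at p below 0.05, against 6.54% of all genes. With that scaling 0 collagens were higher at p below 0.05, against 6.31% of all genes. Both fits count female 1 and female 3, the pair of libraries that differed least, as separate libraries. With this pair averaged and without that scaling, 6 of 42 collagens were lower at p below 0.05, against 0.916% of all genes. Then 0 collagens were higher, against 4.09% of all genes.

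**Figure D4:**
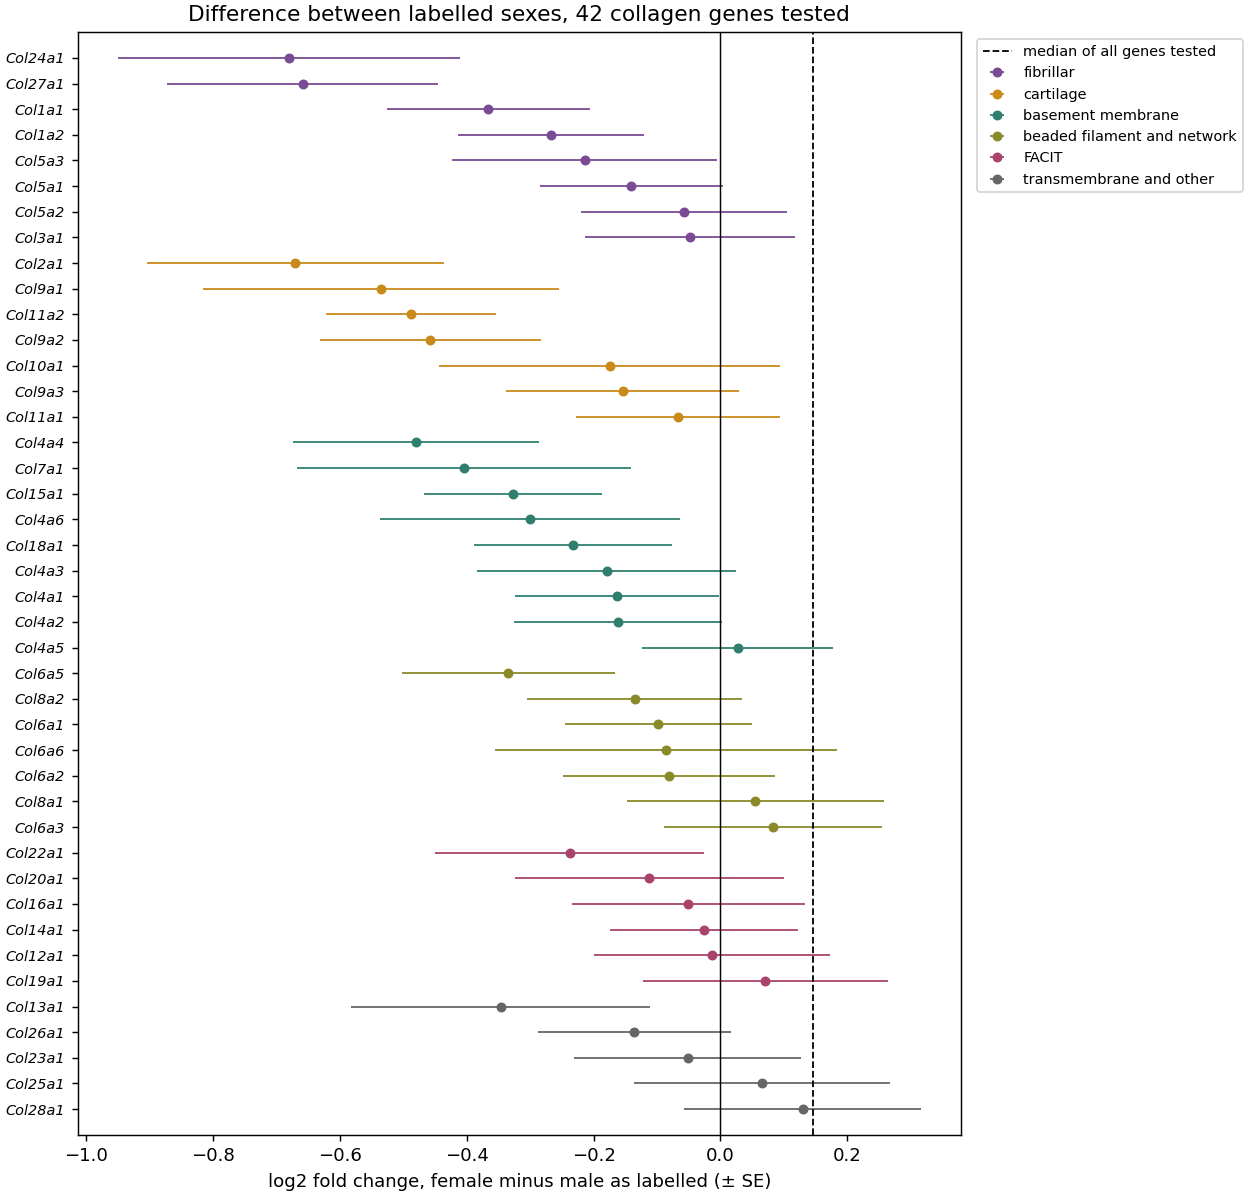
Log2 fold change, female minus male as labelled, with its SE (limma, n = 4 each) for the 42 collagen genes tested, grouped and coloured by class; the dashed line is the median of all genes tested, 0.15. Points of every class lie left of the dashed line, with Col24a1, Col2a1 and Col27a1 farthest to the left, and no gene passed the adjusted test. Col24a1 and Col27a1 had as few as 6 reads in a library.

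The 8 collagens below the unadjusted 0.05 were Col11a2, Col27a1, Col2a1, Col9a2, Col24a1, Col4a4, Col15a1 and Col1a1. Col11a2 averaged 41.4 ± 4.79 CPM over libraries labelled female and 58.6 ± 7.67 CPM over those labelled male (SD, n = 4 each). Its log2 fold change of -0.49 ± 0.13 (SE) had the lowest p of the collagens, with a limma adjusted p of 0.372. Col2a1 averaged 77.3 ± 9.58 CPM over female and 129 ± 46.3 CPM over male libraries, a log2 fold change of -0.67 ± 0.23 (limma adjusted p = 0.372). Col27a1, at 1.05, 1.17, 0.955 and 1.38 CPM in female 1 to 4 and 2.43, 2.79, 1.42 and 3.10 CPM in male 1 to 4, was at -0.66 ± 0.21 with the same adjusted p. Col11a2 and Col27a1 were the 2 of 42 whose labelled groups did not overlap with female lower, which 1.13% of all genes did. Col11a2 had at least 257 reads in each library, but Col27a1 had as few as 6. In Col27a1 female 4 (1.38 CPM) and male 3 (1.42 CPM) lay closer than the value of a single read, 0.0787 CPM in male 3. With female higher, 0 of 42 lay apart, which 3.43% of all genes did.

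Among the abundant chains, the mean of Col1a1 over 4 libraries was 4505 ± 407 CPM for female and 5850 ± 960 CPM for male. Its log2 fold change was -0.37 ± 0.16 (limma adjusted p = 0.372), and Col15a1 was at -0.33 ± 0.14 with the same adjusted p. Col1a2 was at -0.27 ± 0.15, Col4a1 and Col4a2 were each at -0.16, and Col3a1, Col12a1 and Col14a1 were at -0.048 ± 0.17, -0.014 ± 0.19 and -0.026 ± 0.15. The smallest p-values above 0 belonged to Col28a1 (0.13 ± 0.19), Col6a3 (0.083 ± 0.17) and Col19a1 (0.070 ± 0.19), and all 3 were below 0 with median-ratio scaling.

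By class, against 28.3% of all genes below 0, 1.41% lower at p below 0.05 and an all-gene median of 0.15, all 8 fibrillar and all 7 cartilage genes were below 0. They had medians of -0.24 and -0.46 on the log2 scale, and 3 of each class were at p below 0.05. In the fibrillar class these were the abundant Col1a1, and Col24a1 and Col27a1, each with as few as 6 reads in a library. In the basement membrane class 8 of 9 were below 0 (median -0.23, 2 at p below 0.05). Beaded filaments and networks had 5 of 7 below 0 (median -0.086), FACIT genes 5 of 6 (median -0.039) and transmembrane and other genes 3 of 5 (median -0.052), with 0 at p below 0.05. Differences between classes were not tested.

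Without female 1, female 3 and male 1, the 3 whose sex-linked genes did not match the label, 34 of 42 collagens were below 0, against 47.6% of all genes, and their median was -0.22, against 0.012. Then 5 of 42 were lower at p below 0.05 (Col2a1, Col4a4, Col6a5, Col9a1 and Col11a2), against 1.19% of all genes, 0 were higher, against 0.742% of all genes, and 0 passed the adjusted test, which 0.0317% of all genes passed with female lower. With the library number as a block the smallest adjusted p of a collagen was 0.127 and 9 of 42 were lower at p below 0.05, against 2.49% of all genes; 0.0636% of all genes then passed the adjusted test with female higher and 0.108% with female lower. With protein-coding genes alone, rescaled, a choice made after seeing the data, 11 of 42 were lower at p below 0.05 (4.48% of the genes tested), and with the block added 17 of 42 (6.33%). Leaving out female 2, the library with the lowest level for 20 of the 42 genes, put 29 of 42 below 0 (27.1% of all genes) and 4 of 42 lower at p below 0.05 (1.47% of all genes). Without male 1 the same count was 4 of 42 (1.58% of all genes), and without male 4 it was 4 of 41 (1.43% of all genes).

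Class sums differed between libraries within a labelled sex as well as between labelled sexes. Cartilage genes summed to 266, 207, 251 and 229 CPM in female 1 to 4, against 409, 274, 265 and 344 CPM in male 1 to 4, a log2 ratio of means of -0.44. Basement membrane genes summed to 1746, 1342, 1674 and 1853 CPM in female libraries, against 2186, 1973, 1651 and 1942 CPM in male libraries (-0.23). Female 2 was lowest and male 1 or male 2 highest in the fibrillar, cartilage and basement membrane sums. Male 3 lay within the female range in these 3 sums and was the lowest library for beaded filaments and for FACIT genes. Type I chains took a mean of 53.4% of collagen reads in female libraries and 57.0% in male libraries, and the labelled groups of every class sum overlapped.

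**Figure D5:**
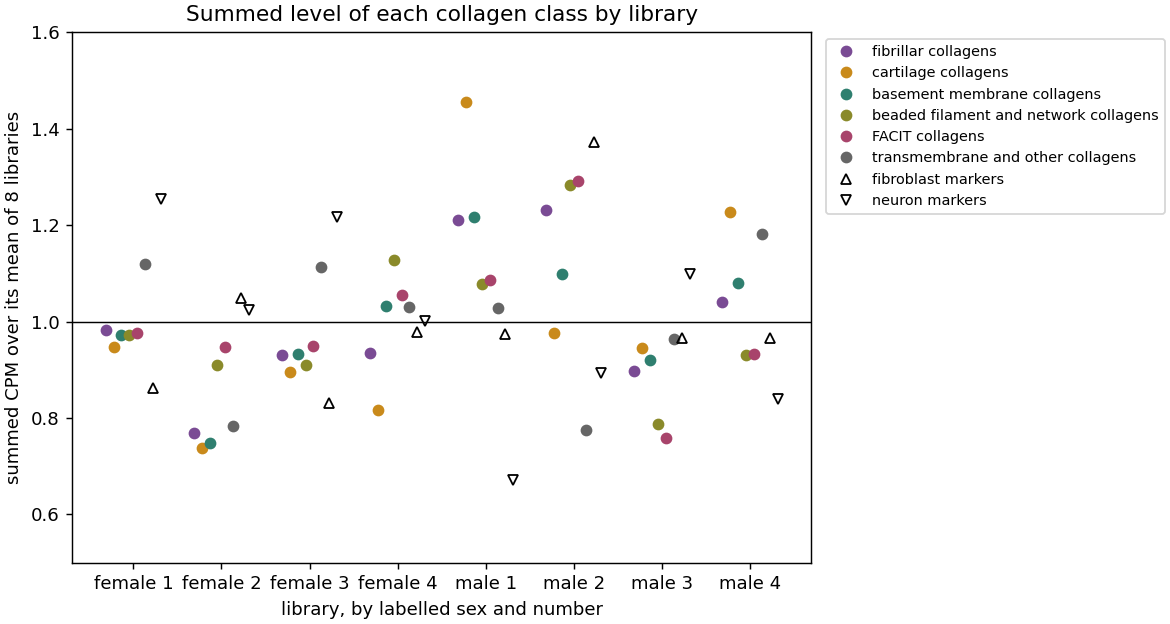
Summed CPM of each collagen class in each of the 8 libraries, divided by its mean over the 8 (vertical axis, from 0.5), with the sums of fibroblast markers (upward triangles) and neuron markers (downward triangles). Fibrillar, cartilage and basement membrane sums are lowest in female 2; neuron markers are lowest in male 1, where cartilage collagens are highest.

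Marker genes of other tissues were read in the same libraries. Their counts below 0 stand beside 28.3% of all genes below 0 and an all-gene median of 0.15. The 10 cartilage markers that are not collagens summed to between 270 and 302 CPM in female libraries and between 305 and 453 CPM in male libraries, and 8 of 9 tested were below 0 (median log2 fold change -0.28). They were led by Comp and Chad, which tendon also makes, at means of 111 and 91.6 CPM. Lect1 (chondromodulin) averaged 42.6 CPM, Acan (aggrecan) 24.2 CPM, Sox9, a transcription factor of cartilage that glia also express, 21.1 CPM, Hapln1 17.7 CPM and Epyc 11.8 CPM. Matn3 averaged 2.51 CPM, and Matn1 had at most 3 reads in any library. The marker sum was highest in male 2, at 453 CPM, where the cartilage collagens were at 274 CPM, and stood at 364 CPM in male 1, where they were highest. Among female libraries the marker sum was highest in female 2, at 302 CPM, where the cartilage collagens were lowest, at 207 CPM. Bone markers summed to between 133 and 185 CPM in female and between 151 and 252 CPM in male libraries, with 9 of 10 below 0. Their part in the levels of the cartilage collagens was not tested.

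Markers of fibroblasts, the main makers of interstitial collagen, summed to between 4967 and 6278 CPM in female and between 5777 and 8209 CPM in male libraries. Of these markers 8 of 10 were below 0 (median -0.15), against 28.3% of all genes. They were highest in male 2, as were Col1a1, Col1a2 and Col15a1, but female 2 had the highest fibroblast sum of the female libraries and the lowest collagen sum. Neuron markers had 8 of 8 above 0 (median 0.38) and skeletal muscle markers 9 of 9 (median 0.28). At p below 0.05, 4 of 8 neuron markers and 0 of 9 skeletal muscle markers were higher, against 11.9% of all genes. Most genes were above 0, with 28.3% of all genes below 0 and an all-gene median of 0.15. Neuron markers were lowest in male 1, at 8604 CPM. Skeletal muscle markers had 9085 and 9014 CPM in female 1 and female 3, and 7767 CPM in male 1. Since CPM are shares, a higher share of such genes lowers that of all others; its part in the collagen values was not tested. Perineurial markers summed to between 713 and 781 CPM in female and between 747 and 1016 CPM in male libraries, endothelial markers to between 304 and 330.0 CPM in female and between 320 and 392 CPM in male libraries, and mural cell markers to between 598 and 675 CPM in female and between 651 and 779 CPM in male libraries. Satellite glia markers lay between 5634 and 8175 CPM in female and between 6721 and 7723 CPM in male libraries, macrophage markers between 359 and 466 CPM in female and between 405 and 560 CPM in male libraries, and spinal cord glia markers between 170 and 206 CPM in female and between 166 and 610 CPM in male libraries, the highest in male 2. Below 0 were 5 of 5 perineurial (median -0.19), 6 of 9 endothelial (-0.097) and 5 of 8 mural markers (-0.13), against 28.3% of all genes. So were 6 of 7 macrophage (-0.14) and 6 of 6 spinal cord glia markers tested (-0.49). Satellite glia had 2 of 5 below 0 (0.034) and Schwann cells 3 of 8 (0.019). At p below 0.05, 1 mural marker (Cspg4) and 1 macrophage marker (Mrc1) were lower, against 1.41% of all genes.

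Genes that process collagen were read from 8 lists, and 0 of their genes passed the adjusted test in either direction, as for all genes. The counts below 0 in these lists stand beside 28.3% of all genes and those lower at p below 0.05 beside 1.41%, with an all-gene median of 0.15. Before adjustment, the enzymes that modify collagen chains in the endoplasmic reticulum had 8 of 15 below 0 (median -0.014). P4hb, a subunit of prolyl 4-hydroxylase, had 321, 248, 311 and 306 CPM in female 1 to 4 and 263, 266, 266 and 284 CPM in male 1 to 4, and Plod1, a lysyl hydroxylase, averaged 158 ± 11.5 CPM (n = 8). Of the folding and export genes 3 of 8 tested were below 0 (median 0.12). Serpinh1, the collagen chaperone HSP47, had 590, 371, 555 and 523 CPM in female 1 to 4 and 485, 531, 392 and 379 CPM in male 1 to 4, a log2 fold change of 0.18 with overlapping groups, and Sec23a, a coat protein of export vesicles, averaged 121 CPM. Mia2 was under 1 CPM and not tested.

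Outside the cell, 7 of 8 genes for propeptide removal were below 0 (median -0.13), led by Pcolce, an enhancer of procollagen C-proteinase, at a mean of 297 CPM and Adamts2, the N-proteinase, at 82.6 CPM. Crosslinking genes had 3 of 5 below 0 (median -0.017), with Lox at 161 CPM and Loxl1 at 28.3 CPM. Proteoglycans and other proteins on fibrils had 10 of 11 below 0 (median -0.16, 1, Comp, lower at p below 0.05), led by Dcn (decorin) at 2421 CPM and Ogn at 650.1 CPM. Collagen receptors had 8 of 10 below 0 (median -0.089), led by Itgb1 at 545 CPM and Mrc2, which takes up collagen fragments, at 148 CPM. The list of collagen breakdown holds enzymes and their inhibitors, and 5 of 11 tested were below 0 (median 0.054). It was led by the inhibitors Timp2 (446 CPM) and Timp3 (346 CPM). The 5 below 0 were Mmp2, Mmp14, Mmp9, Mmp13 and Mmp8, of which 1, Mmp9, was lower at p below 0.05. The Timp genes, Ctsk and Fap were above 0. Mmp1a and Mmp1b were listed at 0 in all libraries.

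Of the 8 lists, the basement membrane partners of type IV collagen had every member on the same side: 13 of 13 were below 0, against 28.3% of all genes, with a median of -0.20, against 0.15, and 4 of 13 lower at p below 0.05, against 1.41%. Sparc, which binds collagen, had 3669, 3787, 3610 and 3151 CPM in female 1 to 4, against 4143, 5039, 3906 and 3298 CPM in male 1 to 4. Hspg2 (perlecan) had 1508, 1445, 1416 and 1376 CPM in female libraries, against 1860, 2054, 1472 and 1857 CPM in male libraries, a log2 fold change of -0.32 with groups that overlapped through male 3. The type IV chains were also below 0 except for Col4a5, which was below 0 only with some of the other settings, and 0 of these genes passed the adjusted test.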

How the data were processed

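Ribosome footprints from 8 mouse DRG libraries were analysed. Ribosome-bound RNA was isolated on columns, then ribosomal RNA was depleted and a gel cut kept fragments of 28 to 34 nt, per the labels' protocols. Per the submitters' processing notes, the tools were TopHat2 2.1.1, Cufflinks 2.2.1, Bowtie2 2.2.9 and FastQC 0.11.5, and the builds GRCm38.p4 and mm10. What each tool did, and on which annotation, was not given in the sources used here.

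For each labelled sex the authors deposited 1 table named as TPM, whose values are CPM: each column sums to 1000000, and between 93.4% and 96.4% of values above 0 in a library are whole multiples of a single step, within 0.01 of a step. Depth was taken from that step. Tests designed for TPM were applied unchanged to log2(CPM + 1), so a fold change understates the change of low genes. Rows of the same symbol were summed (110 symbols came from more than 1 row), and 99.2% of gene identifiers were found in GENCODE M21, the source of positions and coding lengths.

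Female and male libraries as labelled were compared with limma 3.58.1 in R 4.3.3 (intensity trend, two-sided, Benjamini-Hochberg adjustment at 0.05) over all 15720 genes that averaged 1 CPM or more; the fit was tested on simulated data. Class sums and chain ratios were described without a test. To check pairing, each library's deviation from its labelled group was correlated with that of the library of the other group with its number. The correlations were 0.288, 0.492, 0.531 and 0.592 for numbers 1 to 4, all above 0.1, which meets the criterion for pairs. The reported fit stayed as designed, without the number, and values with the number as a block are given beside it where they change a count. What a number stands for is not in the labels, so the pairing rests on the data, in which female 1 was closest to male 3.

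The members, their classes and the lists were chosen with earlier results of these data known. Values per library are given for the 3 highest members of each class and for partner chains, the 3 members with the smallest p in each direction are named, and each list is named by its 2 highest genes. Alternatives were another pseudocount, no filter, median-ratio scaling, the number as a block, leaving libraries out, averaging female 1 and female 3, and, chosen after seeing the data, protein-coding genes alone rescaled to 1000000. Sums, ratios and figures were made in Python 3.11.15 with pandas 2.3.3, numpy 2.4.6, matplotlib 3.10.9 and scipy 1.17.1.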

Additional observations from a re-analysis of the deposited data

Results flagged for a closer look

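Of 122 groups of 4 libraries examined, 6 held a library that stood apart from the other 3 by more than Dixon's critical value; chance alone marks about 1 in 20 groups. Each was a single collagen gene in a single library. Col4a6 was at 3.91 CPM in female 3, against 1.92 to 1.99 CPM in the other female libraries. Col5a3 was at 95.6 CPM in female 2, against 165 to 178 CPM in the others, and Col11a1 at 71.6 CPM in the same library, against 91.9 to 94.4 CPM. Col14a1 was at 288 CPM in female 4, against 190 to 199 CPM in the other female libraries. Col12a1 was at 713 CPM in female 1, where the others lay between 706 and 707 CPM, so that the gap is small in itself. Among male libraries, Col8a2 was at 18.1 CPM in male 3, against 28.1 to 29.4 CPM in the others.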

How the results depend on the processing

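A count model was planned as an alternative and was not run, because the deposited values were not all whole multiples of the value of a single read. Numbers of reads given here, and the chi-square test between libraries, rest on values rounded to whole reads. No collagen passed the adjusted test in any of the 17 settings, including the replicate block, which pairs libraries by number. With that block 10 genes of 15720 passed higher and 17 lower in female libraries, where 0 did without it, and it changed no adjusted call of a collagen. Without female 1, female 3 and male 1, 5 genes passed lower. At an unadjusted p below 0.05, 1877 genes were higher and 222 lower. Leaving out single libraries gave between 644 and 3197 higher, and averaging female 1 and female 3 gave 643 higher and 144 lower. Median-ratio scaling gave 992 higher and 1027 lower, and leaving out the same 3 libraries 117 higher and 188 lower.

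Fold changes were followed across settings for the members named by level, by p or as partner chains. Of these, the ones that changed sign were all within 1 SE of 0 in the main fit. Other members changed sign too: Col8a1 and Col25a1, at 0.055 and 0.066 in the main fit, were below 0 with median-ratio scaling. With median-ratio scaling, Col4a5, Col6a3, Col19a1 and Col28a1 were at -0.13, -0.077, -0.067 and -0.029; with coding genes alone, with or without the block, the first 3 were at -0.073, -0.021 and -0.018. Without female 1, female 3 and male 1, Col4a5 was at -0.087, Col6a2 at 0.026, Col12a1 at 0.021, Col14a1 at 0.14 and Col16a1 at 0.062. With female 1 and female 3 averaged, Col4a5 was at -0.0093 and Col14a1 at 0.025. Leaving out a single library gave ranges of -0.15 to 0.064 for Col3a1, -0.047 to 0.13 for Col4a5, -0.17 to 0.072 for Col5a2, -0.21 to 0.055 for Col6a2, -0.032 to 0.22 for Col6a3, -0.24 to 0.0041 for Col9a3, -0.21 to 0.028 for Col11a1, -0.18 to 0.16 for Col12a1, -0.17 to 0.035 for Col14a1, -0.18 to 0.095 for Col16a1, -0.079 to 0.15 for Col19a1, -0.17 to 0.082 for Col23a1 and -0.021 to 0.28 for Col28a1. The causes were not tested.

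Per length of all annotated exons, the chain ratios were 2.77 for Col1a1 to Col1a2, 1.35 for Col4a1 to Col4a2, 0.984 for Col5a1 to Col5a2, 1.73 for Col6a1 to Col6a2, 0.605 for Col6a3 to Col6a2 and 1.03 for Col11a2 to Col11a1, so their distance from the copy ratio rests on the length chosen. Class sums moved by less than the spread between libraries in every setting run, although the log2 ratios nearest 0 changed sign in some, with ranges when 1 library was left out of -0.16 to 0.073 for beaded filaments and networks, -0.17 to 0.083 for FACIT genes and -0.064 to 0.14 for transmembrane and other genes. Depth limits the rarer chains: 11 collagens had under 20 reads in some library.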
